A study of Mus musculus with 8 samples.

Results

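The 1 Mb segment of mouse chromosome 7 from 148 to 149 Mb (mm9), which holds the genes Hras, Irf7 and Drd4, was described by its peaks of 5-hydroxymethylcytosine (5hmC). Every peak whose midpoint lay in the segment was kept, which gave 336 of the 393283 peaks in 8 peak lists. Overlapping peaks, with a minimum of 1 bp in common, were joined across lists into 126 positions, of 156744 in the genome. The segment was chosen by its peak counts in an earlier reading of the same lists, being lower in aged enriched samples than in their controls. That contrast is therefore given as a description, with no test. At the lower edge the nearest peak kept (young control replicate 2, score 52.1) had its midpoint 21.4 kb inside, and the nearest peak left out (aged enriched replicate 2, score 76.8) 1.37 kb outside. At the upper edge these were 1.71 kb inside (young enriched replicate 1, score 64.9) and 22.0 kb outside (aged control replicate 2, score 50.8).

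Hippocampal DNA came from C57BL/6 mice in 4 groups of 2 samples. Aged enriched and aged control mice were 18 months old, and young enriched and young control mice were 6 weeks old. Enrichment meant 5 h a day, for 4 weeks, in a chamber that offered an exercise wheel, tunnels and toys, while control mice stayed in standard cages. The design asks whether such housing alters 5hmC and whether age matters for it. DNA was sheared to 100 to 500 bp, 5hmC was tagged with a biotin-carrying glucose, and captured fragments were amplified by 18 cycles of PCR and sequenced. Whether both samples of a group stem from different mice is not stated, so a p-value covers only how far the samples differ, and that may be technical. Hippocampus holds many cell types, and fewer cells of a type cannot be told apart from less 5hmC per cell. Peak lists hold no marker levels, so the tissue label was not checked.

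5hmC arises when TET enzymes oxidise 5-methylcytosine, mostly at CpG sites, and it is abundant in neurons, where it lies largely within the bodies of active genes. The segment carries genes of several functions. Hras encodes a small GTPase that passes growth factor and synaptic signals to the MAP kinase pathway, Irf7 a transcription factor of the type I interferon response, and Drd4 the D4 dopamine receptor. The segment was named as gene-dense, which was not measured here because no annotation of the same build was used. In the RefSeq order (GRCm38.p6), 11 genes run from Hras to Drd4, namely Hras, Lrrc56, Lmntd2, Rassf7, Mir210, Gm51460, Phrf1, Irf7, Cdhr5, Sct and Drd4. Of these, 10 are protein-coding, among them Sct, which encodes the hormone secretin, and Mir210 is a microRNA gene. Gene positions in that build were not carried over to mm9, so no peak is assigned to a gene.

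The promoters of the 3 genes that give the segment its name are shown because CpG sites are where most 5hmC can form, and these promoters differ in them. Each runs from 250 bases before to 50 bases after the gene's start (RefSeq, GRCm38.p6, chromosome 7, minus strand for Hras and Irf7 and plus strand for Drd4), written 5′ to 3′ with every CpG (CG, which reads the same on both strands) in capitals.
Hras: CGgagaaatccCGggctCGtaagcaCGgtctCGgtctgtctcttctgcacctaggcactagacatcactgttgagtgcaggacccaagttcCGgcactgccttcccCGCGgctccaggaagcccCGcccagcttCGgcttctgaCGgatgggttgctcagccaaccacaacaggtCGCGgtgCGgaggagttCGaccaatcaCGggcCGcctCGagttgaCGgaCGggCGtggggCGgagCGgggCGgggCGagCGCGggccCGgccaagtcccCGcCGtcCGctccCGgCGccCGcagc
Irf7: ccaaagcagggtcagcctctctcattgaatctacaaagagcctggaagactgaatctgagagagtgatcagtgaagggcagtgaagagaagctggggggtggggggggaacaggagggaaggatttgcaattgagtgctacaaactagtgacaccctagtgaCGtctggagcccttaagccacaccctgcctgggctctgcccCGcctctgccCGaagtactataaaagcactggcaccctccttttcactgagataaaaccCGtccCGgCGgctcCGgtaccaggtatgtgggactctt
Drd4: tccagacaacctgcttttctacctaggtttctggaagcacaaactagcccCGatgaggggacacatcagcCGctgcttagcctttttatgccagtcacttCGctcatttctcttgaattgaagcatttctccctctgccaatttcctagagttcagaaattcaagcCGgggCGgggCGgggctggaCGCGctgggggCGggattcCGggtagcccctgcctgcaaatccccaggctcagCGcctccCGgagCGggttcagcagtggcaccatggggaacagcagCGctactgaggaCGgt
The Hras promoter held 34 CpG sites, a count reached by 7.73% of the 32851 promoters in the table. Drd4 had 15 (reached by 34.6%) and Irf7 had 7 (reached by 52.1%), against a median of 7 over all promoters. At least 1 CpG was present in 94.6% of promoters. Whether any of the peaks lies on these bases was not determined.

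The number of reads per sample is not given in the sources used here, so list length is the measure of how much was detected. Lists ran from 25548 peaks (aged enriched replicate 1) to 78980 (young control replicate 2), and both aged enriched lists were the shortest. Aged enriched replicate 2 stood apart in peak shape. Its median width over the whole list was 430 bp, against 650 to 952 bp elsewhere, and a score of at least 100 was given to 72.4% of its peaks, against 9.92% to 31.9% in the other lists. Some values are also given without it.

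Aged enriched samples had few 5hmC peaks in the segment. The lists held 14 and 11 segment peaks in aged enriched samples, against 58 and 41 in aged control samples. Young enriched lists held 55 and 54, and young control lists 41 and 62. Both aged enriched values lay below those of the other 6 lists, whose ranges overlapped. Per 1000 peaks of the list, the segment held 0.548 and 0.357 peaks in aged enriched samples, against 0.979 and 1.08 in aged control samples. Young enriched samples had 0.957 and 0.908, and young control samples 0.938 and 0.785. Group means were 0.452 ± 0.135 in aged enriched, 1.03 ± 0.0709 in aged control, 0.932 ± 0.0343 in young enriched and 0.862 ± 0.108 in young control samples (SD, n = 2 each).

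The aged enriched mean was 0.440 times the aged control mean. On the log2 scale with 1 peak added to each count, the difference was −1.13 ± 0.22 (SE from the limma fit of all windows), against a median of 0.11 over 1548 windows of 1 Mb. Only 2 of these windows, the segment included, had a difference this low or lower. In 18.5% of the windows both aged enriched lists lay below both aged control lists, and in 5.49% below all 6 other lists. As this contrast chose the segment, these figures describe the choice. Without aged enriched replicate 2 the difference was −0.84, and without replicate 1 it was −1.43.

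Cut to the 25548 highest scores of each list, the lists held 14 and 9 segment peaks in aged enriched samples and 31 and 22 in aged control samples. In young enriched lists this left 22 and 20, and in young control lists 27 and 22. Aged enriched samples thus stayed lowest in lists of equal length, again in the contrast that chose the segment. Among peaks with a score of at least 100 there was 1 in aged enriched replicate 1 and there were 8 in replicate 2, against 16 and 8 in the aged control lists. The counts of aged enriched replicate 2 and aged control replicate 2 were then equal, although the first list held 22310 such peaks and the second 6625.

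The segment ranked 688 and 1043 by peak number among 2207 windows of 1 Mb in the aged enriched lists, against 315 and 261 in the aged control lists. It ranked 307 and 357 in young enriched and 337 and 464 in young control lists. A rank of 1 is the window with the most peaks, so both aged enriched lists placed the segment lower than any of the other 6 did. The length under segment peaks was 10.3 and 4.33 kb in aged enriched samples, against 67.0 and 35.6 kb in aged control samples. Young enriched lists covered 52.8 and 58.2 kb and young control lists 47.9 and 76.4 kb.

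**Figure D1:**
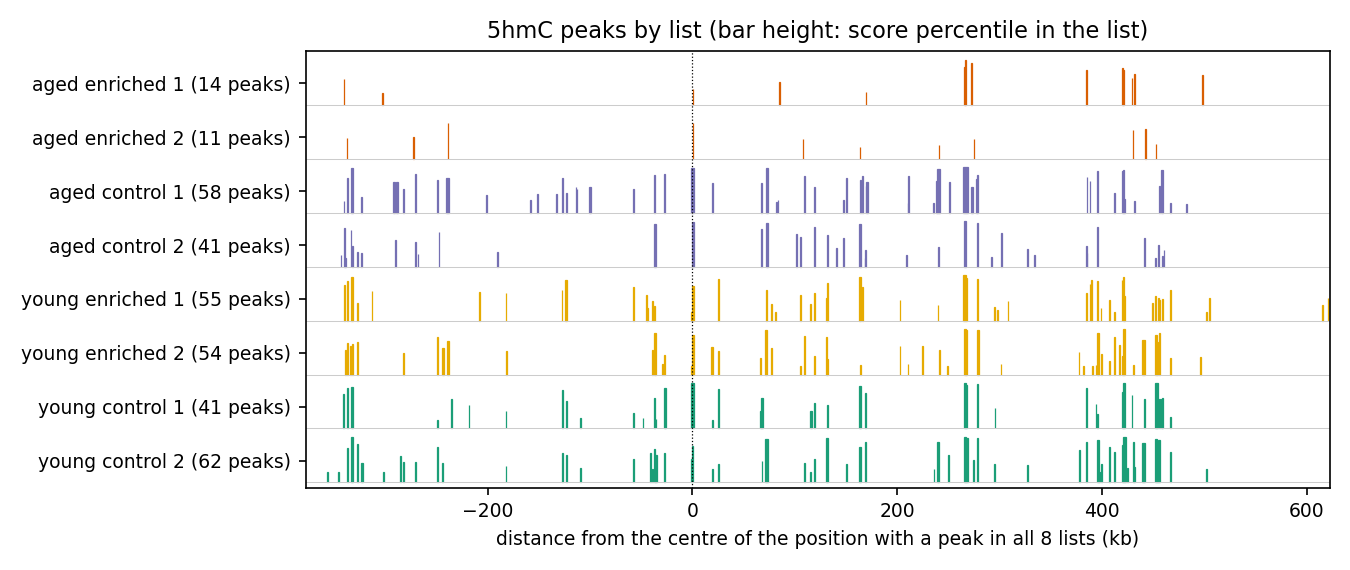
Each bar is a 5hmC peak, drawn at its distance in kb from the centre of the position with a peak in all 8 lists, with a height that follows its score percentile within its list; rows are the 8 lists, coloured by group. The aged enriched rows hold 14 and 11 bars, and the other rows hold 41 to 62.

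The neighbouring windows had aged ratios nearer 1. In the window at 147 to 148 Mb the lists held 8 and 9 peaks in aged enriched and 11 and 14 in aged control samples, and per list length the mean in enriched samples was 1.09 times that in control samples. At 149 to 150 Mb they held 13 and 8 peaks in aged enriched and 35 and 26 in aged control samples, with a ratio of 0.603. At 146 to 147 Mb, which holds more peaks than the segment, the counts were 24 and 36 in aged enriched and 80 and 53 in aged control samples, and the ratio was 0.768. The ratio was 0.812 at 150 to 151 Mb and 0.905 at 151 to 152 Mb. In young samples the same ratio was 1.08 in the segment and ran from 0.751 to 1.13 in these 5 windows.

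**Figure D2:**
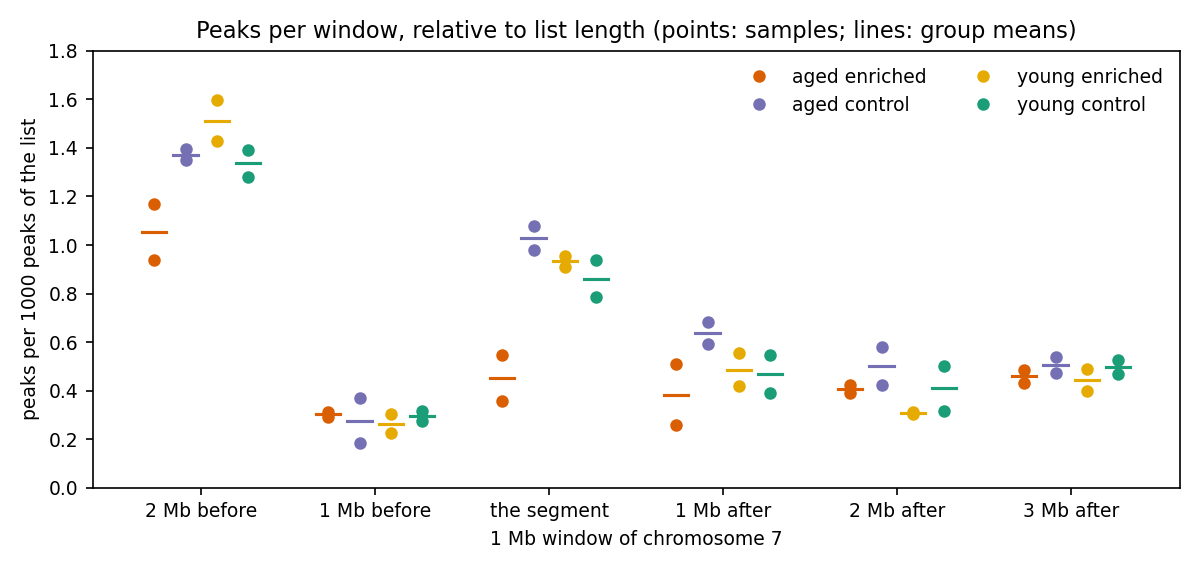
Peaks per 1000 peaks of the list (vertical axis) in the segment and in 5 neighbouring windows of 1 Mb, with a point for each sample and a line at each group mean. In the segment the aged enriched points lie at 0.548 and 0.357, and all other points at 0.785 or above.

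In young mice, housing made no difference in the segment that passed the test. The log2 difference between young enriched and young control samples was 0.12 ± 0.22 (SE), with an unadjusted p of 0.593 and an adjusted p of 0.996 in the limma fit of all windows. By limma, 0 of 1548 windows (0%) passed in this contrast, and 15 had an unadjusted p under 0.05. The values overlapped, since 1 young control list lay between the young enriched lists. The direction turned without young control replicate 2 (−0.018), in lists of equal length (−0.21) and among peaks scoring at least 100 (−0.16). The difference between ages in the effect of housing was not tested, because the aged contrast chose the segment.

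Of the 126 positions, 60 (47.6%) had a peak in 1 list only, close to the 46.7% over all merged positions. The number with a peak in exactly 2, 3 and 4 lists was 21, 13 and 13, and 19 had a peak in at least 5. The median merged width was 953.5 bp, against 892 bp over all positions. The 18 positions wider than 2000 bp had a peak in a median of 5.5 lists and the narrower ones in a median of 1, where joining more lists itself widens a position. The highest percentiles at positions of 1 list were those of chr7:148766764-148767681 (young enriched replicate 1, score 124), chr7:148129858-148130724 (aged control replicate 2, score 81.8) and chr7:148479223-148479873 (aged control replicate 2, score 75.9). A peak of an aged enriched list was found at 23 positions (18.3%), against 31.1% over all merged positions. That count was 11 of 123 positions without aged enriched replicate 1 and 13 of 123 without replicate 2. Among peaks scoring at least 100 it was 9 of 39 positions, so the lower count there goes with fewer positions. The shares over all positions were not computed for these settings. The lower share in the segment with all peaks (18.3%) follows the aged enriched peak counts, which chose it.

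The aged enriched samples shared few positions with each other. Their lists marked 13 and 11 positions, of which 1 was common, which is 7.69% of those of replicate 1 and 9.09% of those of replicate 2. Over the genome these shares were 20.9% and 17.3%. Aged control lists shared 20 of 55 and 37 positions (36.4% and 54.1%, against 32.2% and 50.9% over the genome). Young enriched lists shared 26 of 49 and 48 (53.1% and 54.2%, against 52.9% and 51.0%), and young control lists 29 of 37 and 57 (78.4% and 50.9%, against 67.9% and 37.3%). The aged enriched lists thus had the lowest shares over the genome as well. Overlap depends on the number of peaks, which chose the segment, so their low shares in it are no separate result.

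The only position with a peak in all 8 lists lay at chr7:148376567-148378885. Such positions made up 0.794% of the segment's and 1.31% of all merged positions. Scores there were 53.3 and 137 in aged enriched, against 244 and 159 in aged control samples. They were 90.5 and 118 in young enriched and 319 and 112 in young control samples. Scores come from separate lists and are comparable only as ranks within each. By rank the peak stood 20497th and 8704th in the aged enriched lists, 1346th and 1551st in the aged control lists, 17457th and 9904th in the young enriched lists, and 321st and 19807th in the young control lists. As lists differ in length, these ranks correspond to score percentiles of 19.8 and 71.8 in aged enriched, 97.7 and 95.9 in aged control, 69.6 and 83.3 in young enriched and 99.3 and 74.9 in young control samples. Both aged control percentiles lay above both aged enriched ones, and the 2 young groups overlapped. Peaks covered 586 and 350 bp of the position in aged enriched samples and 1418 to 2274 bp in the other 6, as 2 peaks in both young enriched lists and in young control replicate 2, and as 1 peak elsewhere. The number of such positions was 3 without aged enriched replicate 1 and 2 without replicate 2, and 0 with a score of at least 100 or where a peak had to cover at least 50% of the merged position.

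The strongest position of the segment, chr7:148642287-148647241, was chosen after its values were seen. It is 4955 bp wide and had peaks in 7 lists, with none in aged enriched replicate 2. Its highest score was 137 in aged enriched replicate 1, against 655 and 384 in aged control samples. It was 377 and 380 in young enriched and 314 and 324 in young control samples. The position ranked 736th in the list of aged enriched replicate 1, 45th and 48th in the aged control lists, 162nd and 211th in the young enriched lists, and 341st and 1231st in the young control lists. Its score percentile within the list was 97.1 or more in all 7. In aged enriched replicate 1 it consisted of 2 peaks of 1179 and 831 bp, while aged control replicate 1 had 1 peak over the whole 4955 bp. The nearest peak of aged enriched replicate 2 lay 5428 bp away and was 323 bp wide (score 104).

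Another 2 positions, also chosen after their values were seen, had peaks in 7 lists, with none in aged enriched replicate 1. At chr7:148540434-148542793 scores were 77.9 in aged enriched replicate 2, against 84.5 and 129 in aged control samples. They were 153 and 51.0 in young enriched and 147 and 108 in young control samples. At chr7:148829534-148834380 the score was 92.6 in aged enriched replicate 2, against 72.0 and 60.8 in aged control samples, with 67.0 and 134 in young enriched and 234 and 202 in young control samples. In that aged enriched list the peaks were 414 and 373 bp wide and stood at percentiles of 8.96 and 18.1, below those of both aged control lists.

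Of the 20 positions with a peak in both aged control lists, 12 (60%) had none in either aged enriched list. Over all merged positions this share was 48.6%, and 138 of the 651 windows of 1 Mb with at least 10 such positions (21.2%) had a share as high as the segment's. A share this high was thus common among such windows, and the contrast behind it chose the segment. In lists of equal length 9 of 12 were missing (75%, against 40.7% over all positions), and among peaks scoring at least 100 it was 4 of 6 (66.7%, against 51.3%). With only aged enriched replicate 1 in use 15 of 20 were missing (75%, against 64.6% over all positions), and with only replicate 2 it was 16 of 20 (80%, against 69.4%). Where a peak in 1 aged control list was enough, 29 of 37 positions were missing without aged control replicate 1. Without aged control replicate 2 it was 41 of 55. The shares over all positions were not computed for these settings. The reverse, a peak in both aged enriched lists and in no aged control list, held for 0 of 1 positions, against 17.2% over all merged positions.

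Of the 12, 5 had a peak in all 6 lists outside the aged enriched group. They were 5 of the 9 positions in those 6 lists (55.6%), against 29.9% of such positions over the genome. As low aged enriched counts chose the segment, this higher share is no separate result. The first of the 5 by young score percentile was chr7:148655044-148657092, with scores of 104 and 142 in aged control, 129 and 223 in young enriched and 198 and 227 in young control samples. The nearest aged enriched peak lay 2053 bp away. At chr7:148043815-148046616 scores were 207 and 87.0 in aged control, 171 and 80.3 in young enriched and 128 and 327 in young control samples, with the nearest aged enriched peak at 3090 bp. Score percentiles within the lists were 77.0 or more at the first position and 58.8 or more at the second, and both stayed in all 6 lists when these were cut to equal length.

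At chr7:148772706-148774397 scores were 140 and 101 in aged control, 116 and 139 in young enriched and 54.7 and 167 in young control samples. At chr7:148339888-148342716 they were 105 and 123 in aged control, 55.6 and 138 in young enriched and 78.9 and 99.1 in young control samples. This position lay farthest from an aged enriched peak among the 12, at 35080 bp. At chr7:148496297-148497702 percentiles ran from 27.2 to 82.8, with scores of 68.8 and 100.4 in aged control, 73.6 and 59.6 in young enriched and 68.0 and 70.5 in young control samples. In lists of equal length these 3 positions kept peaks in 5, 4 and 2 lists.

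The other 7 of the 12 lacked a peak in some young lists. The first, chr7:148448570-148451696, had scores of 225 and 139 in aged control and 78.5 and 183 in young enriched samples, and in the young control group only replicate 2 had a peak (score 194). It ranked 1712th and 2422nd in the aged control lists. Of the 12, 2 had a peak in no young list, chr7:148085019-148088067 (scores 79.6 and 66.9 in aged control samples) and chr7:148524735-148525698 (53.4 and 69.3). At chr7:148444944-148446169 scores were 78.8 and 90.5 in aged control samples and 78.0 and 66.3 in young control samples, with no peak in the young enriched lists. At chr7:148834934-148837139 the aged control scores were 153 and 51.7, and 1 list of each young group had a peak (62.3 in enriched and 77.5 in control). At chr7:148107099-148107905 the aged control scores were 114 and 64.2, and young control replicate 2 had the only young peak (65.7).

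**Figure D3:**
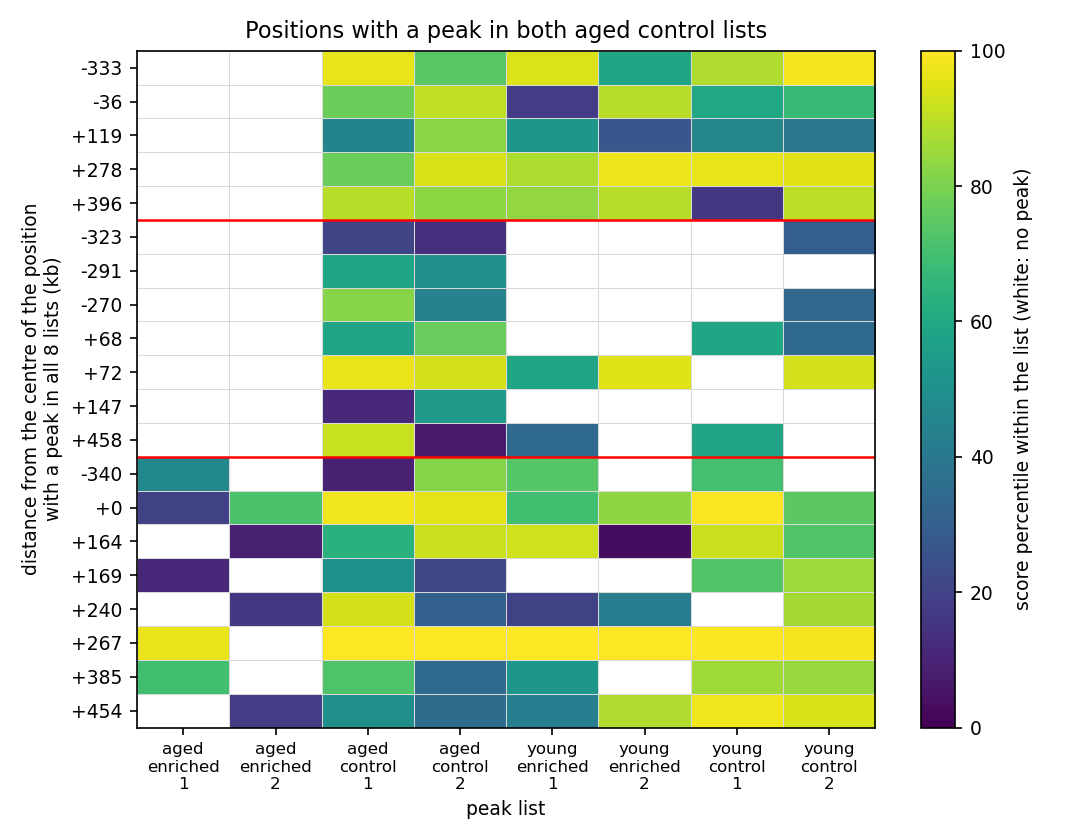
Rows are the 20 positions with a peak in both aged control lists, given by their distance in kb from the centre of the position with a peak in all 8 lists, columns are the lists, and colour is the score percentile within the list, with white for no peak. Red lines part the 5 positions in all 6 lists outside the aged enriched group, the other 7 missing from both aged enriched lists, and the 8 with an aged enriched peak.

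The missing positions ranked lower in the young lists than those kept. The mean score percentile over the young lists had a median of 52.6 in the 10 missing positions with a young peak and of 76.7 in the 8 kept positions. The missing positions had a peak in a median of 2.5 young lists and the kept ones in 3.5. In the aged control lists the order was the opposite, with median percentiles of 65.8 at missing and 57.7 at kept positions. The merged width had a median of 1870.5 bp at missing and 2276.5 bp at kept positions, and a kept position includes aged enriched peaks. These are descriptions of sets that the aged contrast defines, with no test.

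Of the 23 positions with an aged enriched peak, 9 (39.1%) had none in an aged control list, against 54.4% over all merged positions. In 6 of the 23 (26.1%) no list outside the aged enriched group had a peak, against 32.7% over all. The first of the 9 by score percentile was chr7:148806431-148807359, with scores of 61.0 in aged enriched replicate 1 and 87.7 in young control replicate 1. At chr7:148819683-148820114 aged enriched replicate 2 alone had a peak (score 123, 432 bp), and at chr7:148875125-148875881 replicate 1 alone (score 64.1, 757 bp). At chr7:148807577-148808428 scores were 119 in aged enriched replicate 2, 51.2 in young enriched replicate 2 and 147 in young control replicate 2. At chr7:148651750-148653103 they were 104 in aged enriched replicate 2 and 69.6 in young control replicate 2. None of the 9 had a peak in both aged enriched lists. Each therefore rests on 1 aged enriched sample.

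Aged enriched peaks were missing over a long stretch in the lower part of the segment. At chr7:148139328-148377795, a stretch of 238 kb chosen after its values were seen, neither aged enriched list had a peak. Aged control lists had 12 and 2 peaks there, young enriched lists 10 and 6, and young control lists 11 and 11. Between neighbouring peaks of a group in the segment, the longest such stretch was 49.9 kb for the aged control lists together. It was 109.8 kb for the young enriched lists and 66.0 kb for the young control lists. Stretches that reach an edge of the segment were left out of these lengths. The last aged control peak ended at 148860563 and the last young control peak at 148879731. From there to the upper edge these groups had no peak, over more than the 109.8 kb that no list marked. The length of such a stretch depends on the number of peaks, which chose the segment, so the longer aged enriched stretch is no separate result. Single lists outside the aged enriched group also had long empty stretches in the same part. Aged control replicate 2 had no peak over 152 kb and young enriched replicate 2 none over 142 kb. Both stretches lie wholly within the aged enriched one. The last 100 kb of the segment held 2 peaks, both of young enriched replicate 1, and no list had a peak over 109.8 kb of chr7:148883101-148992851.

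Positions that both young enriched and no young control lists marked numbered 3 of 26 (11.5%), against 11.6% over all merged positions. They were chr7:148454582-148455286 (scores 57.1 and 72.7), chr7:148482779-148483978 (69.6 and 50.5) and chr7:148579907-148580656 (61.1 and 76.9). The reverse held for 3 of 29 (10.3%), against 15.4% over all. They were chr7:148268122-148269251 (scores 51.6 and 57.4 in young control samples), chr7:148444944-148446169 (78.0 and 66.3) and chr7:148546021-148547340 (93.2 and 143). With young samples the segment was thus near the genome-wide shares in both directions. A peak in both enriched and no control lists was found at 0 positions in lists of equal length and among peaks scoring at least 100. The count was 14 without young enriched replicate 1 and 17 without young enriched replicate 2, where a peak in the remaining enriched list was enough. It was 10 without young control replicate 2, where only the remaining control list had to lack a peak. The shares over all positions were not computed for these settings, so these counts cannot be set against the genome.

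All 4 young lists marked 16 positions. Aged enriched lists had no peak at 9 of them (56.2%, against 40.8% over all merged positions), and aged control lists at 2 (12.5%, against 14.6%). Those 2 lacked a peak in all 4 aged lists. At chr7:148195279-148196233 scores were 73.0 and 66.9 in young enriched and 58.4 and 59.7 in young control samples. At chr7:148402716-148403963 they were 136 and 66.1 in young enriched and 113 and 62.8 in young control samples. Both comparisons share the young lists, so they are given side by side. The aged contrast chose the segment, so the higher aged enriched share is no separate result.

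Peaks of the segment were about as wide as those of the rest of each list. Median widths in the segment were 671.5 and 414 bp in aged enriched, 926.5 and 718 bp in aged control, 844 and 925 bp in young enriched and 1130 and 1019.5 bp in young control samples. Divided by the median of the whole list, this gave 1.03 and 0.963 in aged enriched, 1.06 and 0.973 in aged control, 0.976 and 1.01 in young enriched and 1.23 and 1.07 in young control samples. The median ratio was 1.02 ± 0.0866 (SD, n = 8 lists). The narrow aged enriched peaks thus follow the widths of their lists. The widest peak measured 1179 and 489 bp in aged enriched, 4955 and 2031 bp in aged control, 2779 and 2554 bp in young enriched and 2273 and 2753 bp in young control samples.

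**Figure D4:**
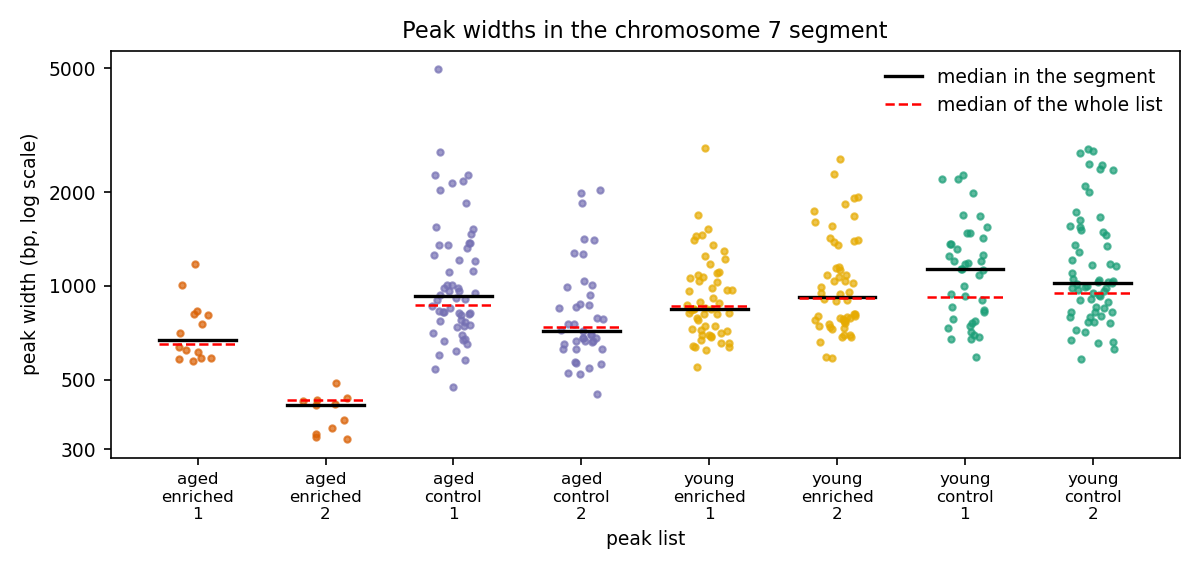
Width of each segment peak in bp on a log axis, by list, with black lines at the segment's median and red dashed lines at the median of the whole list. The 11 peaks of aged enriched replicate 2 lie between 323 and 489 bp, and black and red lines are close in each list, with the largest gap in young control replicate 1 (1130 and 920 bp).

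By score, segment peaks lay on both sides of the middle of their lists. The median percentile of segment peaks within their list was 58.5 and 32.7 in aged enriched, 59.6 and 35.4 in aged control, 45.2 and 46.9 in young enriched and 57.8 and 50.3 in young control samples. It lay above 50 in 4 of the 8 lists and below in 4. Peaks in the top 10% of their list numbered 1 and 0 in aged enriched, 7 and 6 in aged control, 5 and 5 in young enriched and 7 and 9 in young control samples. As shares of the segment's peaks these were 7.14% and 0% in aged enriched, 12.1% and 14.6% in aged control, 9.09% and 9.26% in young enriched and 17.1% and 14.5% in young control samples.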

How the data were processed

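5hmC-enriched DNA of 8 hippocampal samples was sequenced. The authors deposited 1 peak list per sample, giving the start, the end and a caller's score of every peak, each list with its own peak numbers. Named in the submitters' processing notes are mm9 as build and the tools Bowtie 0.12.9, CASAVA 1.4 and MACS 1.4.2. The score is the authors' value and was used only to rank or filter peaks within 1 list. The sources used here do not state caller settings, the background library, read filters or read numbers. Thus depth is unknown, no interval that needs it was computed, and a longer list can reflect more reads. Widths follow fragment size, caller and depth.

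Coordinates are printed counted from 1. Peaks were counted by midpoint in 1 Mb windows. Windows averaging at least 5 peaks over the 8 lists (1548) were fitted as log2 of peaks + 1, scaled to list length, with limma 3.58.1 (R 4.3.3, intensity trend, 4 groups sharing 1 spread, Benjamini-Hochberg adjustment over all windows, threshold 0.05), after a test on simulated data. A pseudocount understates change where peaks are few. With 2 samples a group no permutation test of 2 against 2 can reach 0.05, so other values are descriptions.

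Positions named were up to 8, 10, 5, 5 and 3 of the highest by mean score percentile, over the young lists or, where these had no peak, over the lists with one, of 5 kinds (in all lists, in all but the aged enriched lists, in both aged control and no aged enriched lists, in an aged enriched and no aged control list, and in 1 list only). Others are marked as chosen later or come from counts of 5 or fewer. The segment, lists and tests were chosen with earlier results of these data known. RefSeq names and promoters are of GRCm38.p6, another build. Alternatives were the pseudocount, quantile normalization, score and length filters, the overlap and merging rules, the fit, the replicate block and leaving out each sample.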

Additional observations from a re-analysis of the deposited data

How the results depend on the processing

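The log2 difference in segment peaks between aged enriched and aged control samples kept its direction in all 18 alternatives and moved by less than the pooled replicate SD (0.24) in 16, with −1.13 as reported and −1.43 to −0.84 when 1 sample was left out. Leaving out a young sample, fitting the aged samples alone and the replicate block cannot change this difference. As this contrast chose the segment, its kept direction is no separate result. The young housing difference (0.12) passed the test in no fit, and it turned direction in lists of equal length (−0.21), with a score of at least 100 (−0.16) and without young control replicate 2 (−0.018, with 0.25 as the highest value when 1 sample was left out). Limma called 0 windows for young housing in all 18. Positions missing from the aged enriched lists numbered 12, against 4 with a score of at least 100 and 12 to 41 without 1 sample. Positions with an aged enriched peak numbered 23 of 126, against 11 of 126 where a peak had to cover at least 50% of the position. They numbered 9 of 39 with a score of at least 100 and 11 to 23 without 1 sample. Positions in all lists numbered 1, against 0 by the cover rule, 2 with merging up to 500 bp, 0 with a score of at least 100 and 1 to 3 without 1 sample. Positions in both young enriched and no young control lists numbered 3, against 0 with a score of at least 100, 0 in lists of equal length and 3 to 17 without 1 sample. By construction, leaving out a sample means 1 list fewer that has to hold or to lack a peak. The causes of the other moves were not tested. The median width ratio (1.05 in lists of equal length) and score percentile (58.1) moved by less than their SD over lists. Of 44 values for single positions under the score and length filters, 16 were the same and 28 lower.

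Replicate numbers are shared by the groups, but the labels do not say that they pair samples, and the deviations of same-numbered samples correlated at 0.012 between the aged and −0.0071 between the young groups over 1548 windows. With the replicate block the differences were −1.13 and 0.12, which was fixed because each group holds both replicate numbers. Only the SE can change, and limma again called 0 windows for young housing (adjusted p = 0.996 for the segment). Unknown depth limits each statement that a position lacks a peak.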
